A study of Mus musculus with 6 samples.

Results

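The 42 genes described here encode proteins that make ribosomes: the machinery of RNA polymerase I, the core proteins of small nucleolar ribonucleoproteins (snoRNPs), assembly factors of the small and the large ribosomal subunit, and 3 nucleolar proteins with several roles. They were chosen by symbol from a list of such genes, with no expression value used in the rule, and all 42 were found among the 20637 genes listed in each table. Poly(A) RNA was sequenced from the whole uterus of female mice on postnatal day 21, around weaning. There were 3 libraries from mice with a floxed, undeleted Nat10 allele (Nat10 f/f, the controls) and 3 from mice with Nat10 deleted (Nat10 d/d). The labels name no strain, no Cre driver, no deleted exon and no cell type of deletion. They also do not say whether a library came from 1 animal or from pooled animals, so p-values measure the spread between these libraries, which may be in part technical.

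Ribosomes are built mainly in the nucleolus. RNA polymerase I transcribes a long precursor of ribosomal RNA (rRNA), small nucleolar RNAs (snoRNAs) guide its methylation and pseudouridylation, and large assemblies of proteins fold and cut it into the RNAs of the small and large subunits. Nat10 is itself a nucleolar enzyme that acetylates cytidines in the rRNA of the small subunit, and its yeast counterpart is a component of the small-subunit processome. Growing and dividing cells are known for high expression of these genes, and the transcription factor Myc is known to activate many of them through the E-box sequence.

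Values are FPKM, fragments scaled to transcript length and to the size of the library, so levels can be compared between genes. Summed FPKM per library ranged from 500764 to 549263. Absolute depth is unknown, but the lowest values place the deepest library at 1.26 times the depth of the shallowest. Nat10 (ENSMUSG00000027185; chr2:103721256-103761270, minus strand, GRCm38) was at 13.2, 16.4 and 9.95 FPKM in controls and at 5.57, 5.23 and 5.53 in Nat10 d/d uteri. Its mean in Nat10 d/d was 41.4% of the control mean and the groups did not overlap. By an exact permutation test the two-sided p was 0.1, which is as low as 3 libraries against 3 can go; limma gave a log2 change of -1.11 (SE 0.17; adjusted p 0.669 over all genes). Uterine transcription factor genes were well expressed in every library, with Hoxa10 between 116 and 151 FPKM and Hoxa11 between 65.8 and 86.7. Of 6 ovary genes, Fshr, Zp3 and Cyp19a1 were listed at 0 in all 6 libraries. Amh, Gdf9 and Inhba were low, with Inhba the highest by mean, at 1.17 to 1.82 FPKM. The oviduct gene Ovgp1 was at 0.817 to 6.42 FPKM. Nat10 d/d replicate 2 stands apart by its high proliferation genes.

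No gene of the set passed the test between Nat10 d/d and Nat10 f/f uteri. All 42 passed the filter on low values, and 0 of 42 had a limma adjusted p under 0.05, where 0% of the 12640 tested genes did; the smallest value in the set was 0.922. In whole tissue, a change in the number of cells of a type and a change in RNA per cell cannot be told apart. Of the 42 genes, 27 had a higher mean on the log2(FPKM + 1) scale in Nat10 d/d and 15 a lower one, with a median log2 change of 0.05 beside 0.03 over all tested genes. The changes ran from -0.23 for Bop1 to 0.43 for Gar1. At an unadjusted p under 0.05 there was 1 gene of 42, Gar1, beside 4.98% of all tested genes.

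The limits on a change were fairly narrow, least so in the snoRNP core. The 95% interval of the log2 change lay between -1 and 1 for 42 of 42 genes, beside 11765 of 12640 tested genes. This keeps each of the 42 within a doubling or halving of FPKM + 1. The interval lay within a 1.5-fold change of FPKM + 1 in either direction for 33 of 42, beside 8570 of 12640. By class these were 2 of 7 snoRNP core, 16 of 17 small-subunit, 7 of 9 large-subunit, 6 of 6 RNA polymerase I and 2 of 3 other genes. The lowest bound was -0.74 (Bop1) and the highest 0.80 (Nhp2). The balance of directions moved with single libraries. In controls, 19 of 42 genes were higher without replicate 1, 37 without replicate 2 and 22 without replicate 3, with medians of -0.02, 0.14 and 0.01. In Nat10 d/d, 27 were higher without replicate 1, 18 without replicate 2 and 28 without replicate 3, with medians of 0.08, -0.03 and 0.04. Without replicate 2 of both groups, 26 of 42 were higher, with a median of 0.05. In each of these fits 0 of the 42 genes passed the threshold, beside 0.0949% of all tested genes without Nat10 d/d replicate 2. With array quality weights, which give each library a weight by its scatter, 0 of 42 passed beside 2.5% of all tested genes, and 19 of 42 were higher.

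**Figure D1:**
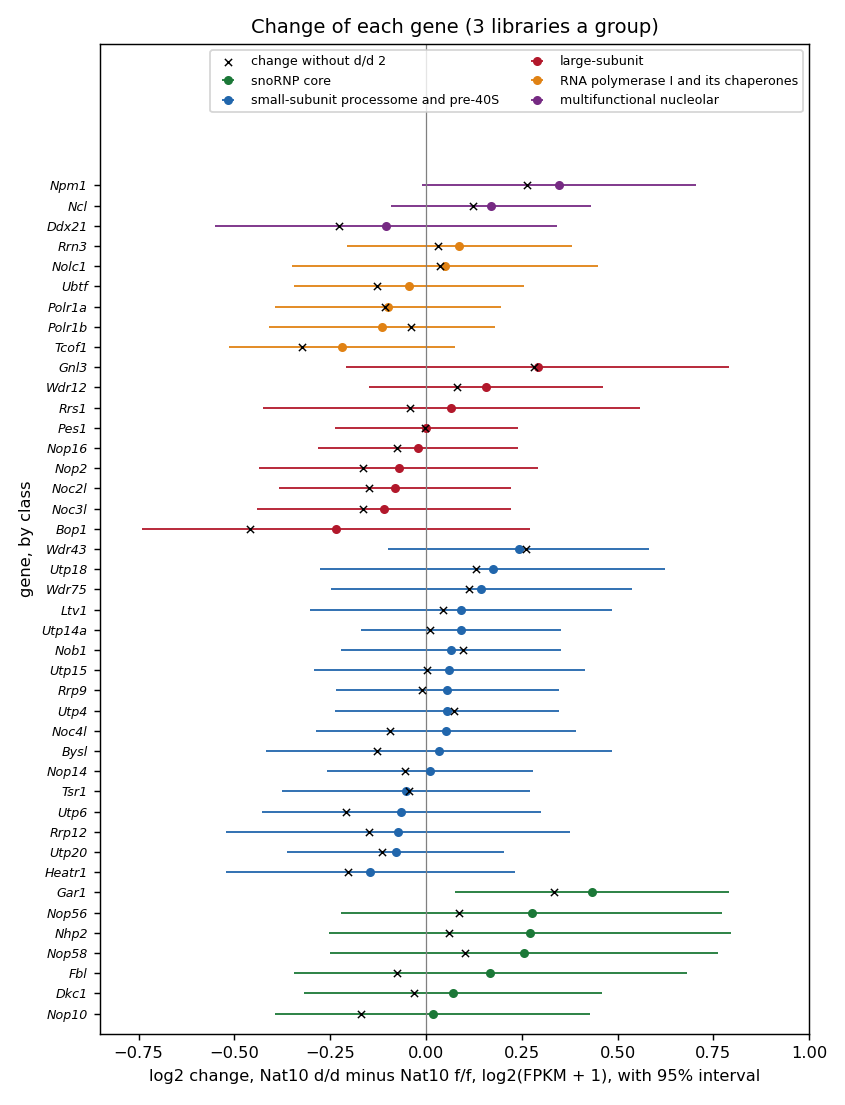
Log2 change of each of the 42 genes, Nat10 d/d minus Nat10 f/f, on the log2(FPKM + 1) scale (x axis), with genes on the y axis by class. Points are limma estimates from 3 libraries a group, bars are 95% intervals and crosses are the estimates without Nat10 d/d replicate 2. Gar1, at 0.43, is the only gene whose interval does not include 0.

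The genes differed widely in level and little between groups. Mean FPKM over the 6 libraries ranged from 5.98 for Rrp12 to 399 for Npm1, with a median of 20.2 beside 13.4 over all tested genes. The snoRNP core proteins had a median of 50.5 FPKM, the large-subunit factors 27.1, the RNA polymerase I group 18.2 and the small-subunit factors 15.9. After Npm1 came Fbl at 105, Ncl at 97.1, Nop10 at 90.8 and Ubtf at 63.4. The ranges over libraries of Fbl, Ncl and Nop10 overlapped, so their order is not fixed by these data.

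**Figure D2:**
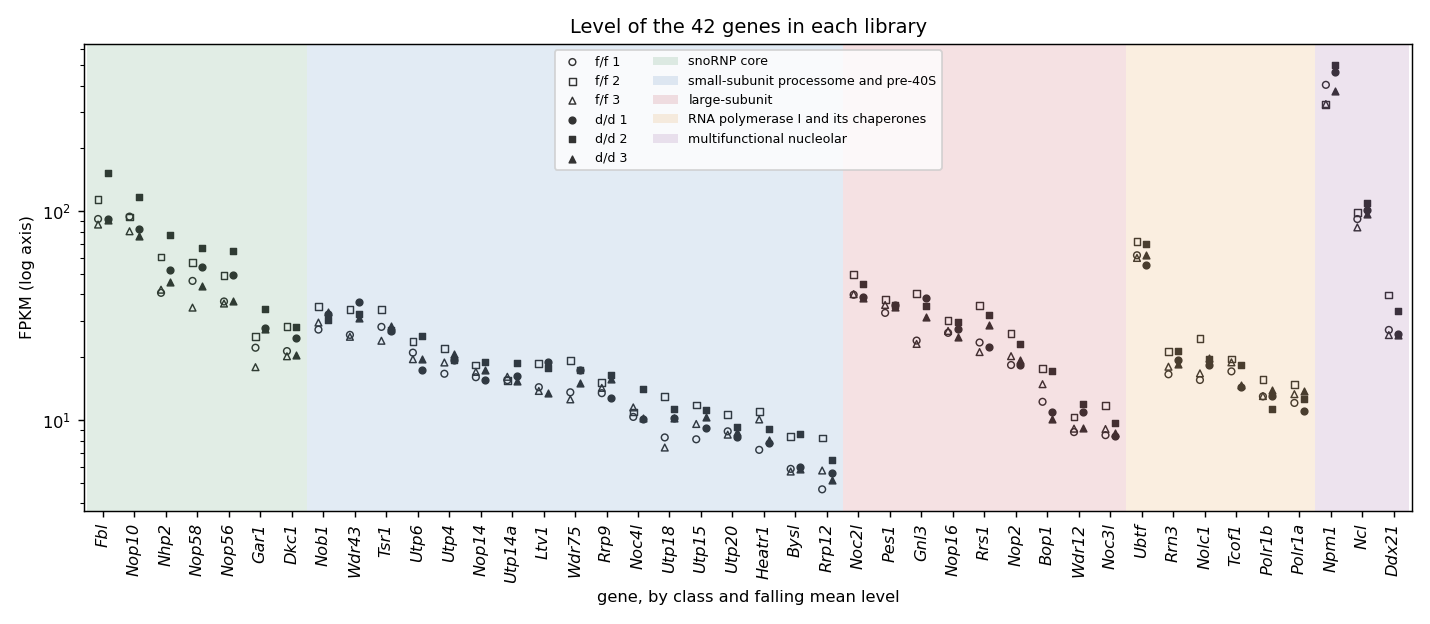
FPKM (log y axis) of the 42 genes in each library, ordered by class and by falling mean level. Open symbols are Nat10 f/f and filled symbols Nat10 d/d libraries; Npm1 lies highest, at 324 to 501 FPKM, and Rrp12 lowest, at 4.67 to 8.23.

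RNA polymerase I genes were examined first, since they act at the start of the pathway. The class held Polr1a and Polr1b, the 2 largest catalytic subunits, Ubtf, which binds the rRNA gene promoter, Rrn3, which brings the polymerase to it, and Nolc1 and Tcof1, nucleolar phosphoproteins that bind the polymerase and snoRNPs. None of the 6 genes passed the test. Their median log2 change was -0.07, with 2 higher and 4 lower. As single libraries were left out it ranged from -0.12 (without Nat10 f/f replicate 1, 1 higher) to 0.01 (without Nat10 d/d replicate 1, 3 higher).

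Tcof1, which encodes treacle, had the smallest p of this class. It was at 17.1, 19.7 and 18.9 FPKM in controls and at 14.5, 18.4 and 14.8 in Nat10 d/d. Nat10 d/d replicates 1 and 3 lay below every control, while replicate 2 lay inside the control range. Tcof1 had a log2 change of -0.22 (SE 0.13), at a limma adjusted p of 0.922. It ranged from -0.16 without Nat10 d/d replicate 1 to -0.32 without Nat10 d/d replicate 2.

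Ubtf was at 61.6, 71.7 and 59.8 FPKM in controls and at 55.6, 69.9 and 61.9 in Nat10 d/d. The highest library of each group was its replicate 2, and the groups overlapped. Its log2 change of -0.04 (SE 0.13) had an interval from -0.35 to 0.26.

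The polymerase subunits were at similar levels. Polr1a was at 12.1, 14.9 and 13.3 FPKM in controls and 11.1, 12.6 and 13.8 in Nat10 d/d. Polr1b was at 13.01, 15.7 and 13.1 in controls and 13.1, 11.4 and 13.9 in Nat10 d/d. Polr1b was 1 of 3 genes of the set that were lowest, within Nat10 d/d, in replicate 2. The intervals of the log2 change ran from -0.39 to 0.20 for Polr1a and from -0.41 to 0.18 for Polr1b. Rrn3 averaged 18.6 ± 2.41 FPKM in the controls and 19.8 ± 1.48 after deletion (SD, n = 3). Nolc1 had 19.0 ± 4.89 and 19.3 ± 0.827 (SD, n = 3), a difference smaller than the control spread. That spread came mostly from control replicate 2, with controls at 15.6, 24.6 and 16.8 FPKM and Nat10 d/d at 18.4, 19.6 and 19.9. The log2 change of Nolc1 was 0.05, and 0.24 without Nat10 f/f replicate 2.

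None of the snoRNP core genes passed the test. Fbl (fibrillarin), the methyltransferase, works with the scaffold proteins Nop56 and Nop58 on box C/D snoRNAs, which direct ribose methylation. Dkc1 (dyskerin), the pseudouridine synthase, works with Nhp2, Nop10 and Gar1 on box H/ACA snoRNAs, which direct pseudouridylation. All 7 genes had a higher mean in Nat10 d/d, with a median log2 change of 0.25. After quantile normalization, median centring or upper-quartile scaling 6 of 7 were higher, with medians from 0.19 to 0.23.

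The size of this difference moved with single libraries of both groups. Relative to the control mean, the class median was 0.15, 0.63 and -0.08 in Nat10 d/d replicates 1, 2 and 3, and -0.07, 0.28 and -0.16 in controls. Replicate 2 of Nat10 d/d therefore lay above all controls, and replicates 1 and 3 lay inside the control range. Without it, 4 of 7 genes were higher and the median log2 change was 0.06, and without Nat10 f/f replicate 3, the lowest control, 5 of 7 were higher, with a median of 0.09. The median was 0.17 without Nat10 f/f replicate 1, 0.42 without Nat10 f/f replicate 2 and 0.40 without Nat10 d/d replicate 3, with 7 of 7 higher in each. Without replicate 2 of both groups, 6 of 7 were higher, with a median of 0.23.

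Gar1 was the only gene of the 42 whose groups did not overlap. Gar1 (ENSMUSG00000028010; chr3:129824912-129831396, minus strand) was at 22.2, 25.1 and 17.96 FPKM in controls and at 27.7, 34.0 and 27.2 in Nat10 d/d. All 3 Nat10 d/d libraries thus lay above the highest control, and the mean was 136% of control. Over all tested genes, 6.12% were higher without overlap, so 1 gene of 42 is below the background share. The log2 change was 0.43 (SE 0.15; 95% interval 0.07 to 0.79; limma adjusted p 0.922). It ranged from 0.31 without Nat10 f/f replicate 3 to 0.54 without Nat10 f/f replicate 2, and its adjusted p ranged from 0.094 to 1 over all settings tried.

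Because Gar1 alone separated the groups, the 250 bases before its RefSeq start site are shown, from GRCm38.p6, chr3:129831397-129831646, minus strand, 5′ to 3′. The capitals mark 2 matches to CGGAAG, the core sequence of ETS family sites, or its reverse complement CTTCCG. Such a match was found in promoters of 54.3% of the matched genes of the set and 18.8% of all genes. It is not evidence of binding, and its part in the values of Gar1 was not tested.
Gar1: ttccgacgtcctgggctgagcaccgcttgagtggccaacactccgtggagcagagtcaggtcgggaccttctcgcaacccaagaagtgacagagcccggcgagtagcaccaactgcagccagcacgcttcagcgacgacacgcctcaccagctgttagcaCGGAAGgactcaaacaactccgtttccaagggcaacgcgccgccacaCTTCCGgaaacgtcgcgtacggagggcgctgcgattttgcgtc

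The other H/ACA proteins did not separate the groups. Nhp2 was at 40.7, 60.5 and 42.2 FPKM in controls and 52.1, 76.6 and 46.2 in Nat10 d/d. Nop10, the smallest of these proteins, was at 94.4, 93.9 and 80.3 in controls and 82.2, 118 and 76.3 in Nat10 d/d. Dkc1 was at 21.4, 28.2 and 20.2 in controls and 24.8, 28.0 and 20.5 in Nat10 d/d. In each of them Nat10 d/d replicate 2 was the highest and replicate 3 the lowest of its group. The log2 changes were 0.27 (SE 0.23) for Nhp2, 0.02 (SE 0.18) for Nop10 and 0.07 (SE 0.17) for Dkc1. Without Nat10 d/d replicate 2 they were 0.06, -0.17 and -0.03, so the signs of Nop10 and Dkc1 turned. Without Nat10 f/f replicate 2 they were 0.45, 0.05 and 0.21.

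The C/D proteins had the same order within Nat10 d/d. Fbl (ENSMUSG00000046865; chr7:28169710-28179269, plus strand) was at 91.9, 114 and 86.4 FPKM in controls and at 92.3, 153 and 91.3 in Nat10 d/d. Only Nat10 d/d replicate 2 lay outside the control range. The log2 change of Fbl was 0.17 (SE 0.22), and -0.08 without that library. It was 0.29 without Nat10 f/f replicate 2 and 0.04 without replicate 2 of both groups.

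Nop56 was at 37.0, 49.5 and 36.2 FPKM in controls and 49.5, 64.4 and 37.4 in Nat10 d/d. Nop58 was at 46.5, 57.1 and 34.6 in controls and 53.9, 66.9 and 43.7 in Nat10 d/d. Both had overlapping groups. Their log2 changes were 0.28 (SE 0.21) and 0.25 (SE 0.22), and 0.09 and 0.10 without Nat10 d/d replicate 2. Without Nat10 f/f replicate 2 both were 0.42, and Nop56 was at 0.47 without Nat10 d/d replicate 3.

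Several of these genes also carry the RNAs that the proteins serve. In GENCODE M21, 7 of the 42 genes hold a total of 21 annotated snoRNA genes on their own strand, 11 of them intronic and the rest overlapping an exon of at least 1 transcript of the host: Nop56, Nop58, Dkc1, Wdr43, Tsr1, Gnl3 and Ncl. Levels of the snoRNAs themselves, which are mostly without a poly(A) tail, were not analysed here. To show what Fbl, Nop56 and Nop58 bind, 1 C/D snoRNA from each of 4 host genes is printed from the GENCODE transcripts (GRCm38), in DNA letters, 5′ to 3′. The capitals mark the first TGATGA, the heart of box C, and the last CTGA, box D. Those shown were picked because they hold both exactly; Snord57 of Nop56 and Snord70 of Nop58 do not.
Snord110 (in Nop56, chr2:130275506-130275573, plus strand): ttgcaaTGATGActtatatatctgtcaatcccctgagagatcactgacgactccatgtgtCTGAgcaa
Snord11 (in Nop58, chr1:59704790-59704873, plus strand): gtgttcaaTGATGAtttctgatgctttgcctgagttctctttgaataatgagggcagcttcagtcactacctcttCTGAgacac
Snord69 (in Gnl3, chr14:31014287-31014366, minus strand): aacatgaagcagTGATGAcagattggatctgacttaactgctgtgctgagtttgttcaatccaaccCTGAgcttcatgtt
Snord82 (in Ncl, chr1:86356261-86356330, minus strand): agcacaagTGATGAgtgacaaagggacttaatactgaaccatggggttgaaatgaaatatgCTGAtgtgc

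The small-subunit factors, the class to which Nat10 belongs by function, changed little. The 17 genes cover the early t-UTP proteins (Utp4, Utp15, Heatr1, Wdr43 and Wdr75), which bind the rRNA precursor as it is made, the UtpB proteins Utp6 and Utp18, and other processome proteins (Utp14a, Utp20, Rrp9, Nop14 and Noc4l). They also cover the late factors Rrp12, Nob1, Tsr1, Bysl and Ltv1, which act in late maturation and export of the subunit. None of the 17 passed the test, 12 were higher and 5 lower, and the median log2 change was 0.05. Without Nat10 d/d replicate 2, 8 were higher and 9 lower, with a median of -0.01. Without Nat10 f/f replicate 1, or with array quality weights, 7 were higher and 10 lower, with medians of -0.03 and -0.04. Without Nat10 f/f replicate 2, 16 were higher and the median was 0.12.

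Wdr43 had the smallest p of this class. It was at 25.6, 34.0 and 25.1 FPKM in controls and at 36.9, 32.3 and 30.8 in Nat10 d/d. The Nat10 d/d libraries lay above 2 of the 3 controls, and control replicate 2 lay among them. Its log2 change of 0.24 (SE 0.15) had a limma adjusted p of 0.922. The change ranged from 0.17 without Nat10 f/f replicate 3 to 0.38 without Nat10 f/f replicate 2. Of the other t-UTP genes, Wdr75 had a log2 change of 0.14 and Heatr1, the largest of these proteins, one of -0.15. Without Nat10 f/f replicate 2 these were 0.32 and -0.04.

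Nob1, the endonuclease that makes the final cut of small-subunit rRNA, had the highest mean of the class over the 6 libraries. That mean was 31.2 FPKM, close to 30.8 for Wdr43, which was higher in Nat10 d/d (33.3 against 31.8), so their order is not fixed. Nob1 was at 27.2, 35.1 and 29.4 FPKM in controls and at 32.3, 30.3 and 32.8 in Nat10 d/d, all 3 inside the control range. The log2 change was 0.06 (SE 0.12; 95% interval -0.22 to 0.35). Its sign turned without Nat10 f/f replicate 1, to -0.01.

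Utp6 had the widest log2 range of the class among Nat10 d/d libraries, at 17.3, 25.2 and 19.6 FPKM, against 21.1, 23.9 and 19.6 in controls. Its log2 change was -0.06 (SE 0.16), and the sign turned without Nat10 f/f replicate 2 (0.01) or without Nat10 d/d replicate 1 (0.05). Nop14, a scaffold of the processome, had means of 17.2 ± 1.15 FPKM without and 17.3 ± 1.67 with the deletion (SD, n = 3). The lowest of the class, Rrp12 and Bysl, were at 4.67 to 8.23 and 5.68 to 8.64 FPKM over the 6 libraries.

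The large-subunit factors were as close between groups. The class held Bop1, Pes1 and Wdr12, which form the PeBoW complex, Nop2, a methyltransferase of large-subunit rRNA, Gnl3 (nucleostemin), a GTP-binding protein, and Rrs1, Nop16, Noc2l and Noc3l. None of the 9 passed the test, 4 were higher and 5 lower, and the median log2 change was -0.02. As single libraries were left out it ranged from -0.08 without Nat10 f/f replicate 3, with 3 higher, to 0.05 without Nat10 f/f replicate 2, with 8 higher.

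None of the 3 PeBoW genes passed the test, and their intervals overlapped. Pes1 had the narrowest interval of all 42 genes, with means of 35.4 ± 2.59 FPKM in controls and 35.3 ± 0.341 in Nat10 d/d (SD, n = 3) and a log2 change of 0.00 (95% interval -0.24 to 0.24). Bop1 was at 12.3, 17.7 and 14.9 FPKM in controls and at 10.9, 17.3 and 10.1 in Nat10 d/d. Nat10 d/d replicates 1 and 3 lay below every control and replicate 2 close to the highest. Bop1 had a log2 change of -0.23 (SE 0.22) at a limma adjusted p of 0.943. Leaving out Nat10 d/d replicate 2 made it -0.46 (limma adjusted p 0.271; range over all settings 0.153 to 1), Nat10 f/f replicate 1 -0.36, Nat10 d/d replicate 1 -0.15, Nat10 f/f replicate 2 -0.11 and Nat10 d/d replicate 3 -0.10. Wdr12 was at 8.78, 10.4 and 9.12 in controls and 10.9, 11.9 and 9.16 in Nat10 d/d, a log2 change of 0.16 (SE 0.13) that was 0.08 without Nat10 d/d replicate 2.

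Gnl3 was at 24.1, 40.5 and 23.2 FPKM in controls and at 38.4, 35.4 and 31.3 in Nat10 d/d. Control replicate 2 was the highest of all 6 libraries, and the other 2 controls were the lowest. For Gnl3 the log2 change was 0.29 (SE 0.21), with a limma adjusted p of 0.926. It was 0.54 without Nat10 f/f replicate 2, 0.18 without Nat10 f/f replicate 1 and 0.15 without Nat10 f/f replicate 3. Noc2l, the most abundant of the class and also known as an inhibitor of histone acetylation, was at 39.9, 50.03 and 40.1 FPKM in controls and 39.1, 44.8 and 38.6 in Nat10 d/d. Its log2 change was -0.08 (SE 0.13), and ranged from -0.15 without Nat10 d/d replicate 2 to 0.02 without Nat10 f/f replicate 2.

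The last class held abundant nucleolar proteins with several roles. Npm1 (nucleophosmin; ENSMUSG00000057113; chr11:33152287-33163206, minus strand), a chaperone of ribosome assembly that also binds p53 regulators, was at 403, 324 and 326 FPKM in controls and at 464, 501 and 378 in Nat10 d/d. Nat10 d/d replicates 1 and 2 lay above every control, and replicate 3 lay below control replicate 1. The mean was 128% of control, and the log2 change was 0.35 (SE 0.15; 95% interval -0.01 to 0.70; limma adjusted p 0.922). It ranged from 0.26 without Nat10 d/d replicate 2 to 0.46 without Nat10 d/d replicate 3, and was 0.21 without replicate 2 of both groups. Npm1 has processed pseudogene copies in the mouse genome, and the sources used here do not say how reads shared with them were counted.

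Ncl (nucleolin), which binds nascent rRNA, was at 91.9, 98.6 and 83.8 FPKM in controls and at 102, 110 and 96.8 in Nat10 d/d. Only Nat10 d/d replicate 3 lay below the highest control. Its log2 change was 0.17 (SE 0.11). Ddx21, an RNA helicase of rRNA transcription and processing, was at 27.1, 39.8 and 25.6 in controls and 25.8, 33.4 and 25.5 in Nat10 d/d, a log2 change of -0.11 (SE 0.19) that was -0.23 without Nat10 d/d replicate 2 and 0.09 without Nat10 f/f replicate 2.

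The variation these genes shared ran between libraries rather than between groups. Within controls, 38 of the 42 genes were highest in replicate 2, a position it held for 35.1% of all tested genes. Within Nat10 d/d, 31 of 42 were highest in replicate 2, which was highest for 40.1% of all tested genes. Of all 6 libraries, control replicate 2 was the highest for 24 genes of the set and Nat10 d/d replicate 2 for 16, and Nat10 d/d replicate 1 for the other 2. Over all tested genes, control replicate 2 was the highest for 8.87% and Nat10 d/d replicate 2 for 30.1%, beside 57.1% and 38.1% of the set. The median deviation from the control mean was -0.11, 0.21 and -0.10 in controls and -0.07, 0.19 and -0.03 in Nat10 d/d. Over all tested genes the median deviations lay between -0.01 and 0.03.

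The classes differed in which of these 2 libraries led. Control replicate 2 was the highest of the 6 for 8 of 9 large-subunit genes, 5 of 6 RNA polymerase I genes and 9 of 17 small-subunit genes. Nat10 d/d replicate 2 was the highest for 6 of 7 snoRNP core genes, the exception being Dkc1. Relative to the control mean, the large-subunit median was 0.24 in control replicate 2 and 0.11 in Nat10 d/d replicate 2, and the RNA polymerase I median was 0.16 and 0.03. Whether these differences between classes exceed the spread was not tested. Among marker lists of other cells, the summed FPKM of control replicate 2 lay between those of the other 2 controls for 4 lists. These were 7 leukocyte genes (98.4), 5 red blood cell genes (2629), 4 skeletal muscle genes (50.5) and 3 oviduct and ciliated genes (6.07). It was lowest for 4 fat genes (2.00) and 6 ovary genes (2.36). Single genes made up most of some sums. In control replicate 2 Lyz2 was at 67.0 FPKM among leukocyte genes. Acta1 was at 45.4 among muscle genes, where Ckm was at 0.310 and Myh4 at 0. Control replicate 1 was far above the other controls for fat genes (73.4, against 2.00 and 5.52) and red blood cell genes (5581, against 2629 and 851). The part of other cells in the values of the 42 genes was not tested.

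**Figure D3:**
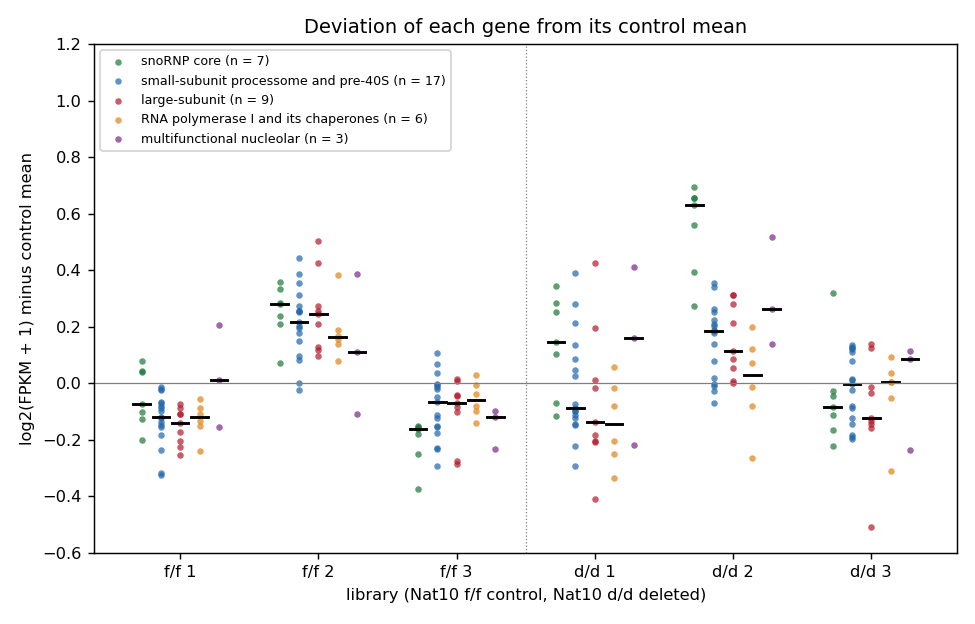
Log2(FPKM + 1) of each of the 42 genes minus its control mean (y axis), by library (x axis) and class. Each point is 1 gene and each black bar a class median. The median of control replicate 2 lies above 0 in every class, and Nat10 d/d replicate 2 is highest in the snoRNP core, at a median of 0.63.

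Proliferation genes were high in only 1 of these 2 libraries. The list of 12 (Mki67, Top2a, Ccnb1, Cdk1, Mcm2, Mcm3, Mcm5, Pcna, Rrm2, Birc5, Aurkb and Bub1) had a median deviation of 0.59, -0.60 and -0.02 in controls and -0.63, 1.78 and -1.32 in Nat10 d/d. Mki67, a marker of cycling cells, was at 10.7, 2.47 and 7.57 FPKM in controls and at 2.30, 24.0 and 1.28 in Nat10 d/d. Thus 12 of 12 proliferation genes were highest of all in Nat10 d/d replicate 2, beside 30.1% of all tested genes. Among controls, 8 of 12 were lowest in replicate 2, where the ribosome genes were high, beside 4259 of 12640 tested genes. Mcm2 (15.4, 15.5 and 13.2 FPKM) and Mcm3 (17.11, 17.17 and 16.4) were by a little highest there among controls. Summed FPKM of the list ranged from 147 to 220.2 in controls and from 85.8 to 526 in Nat10 d/d, and none of the 12 was listed at 0 in all libraries. The part of dividing cells in the snoRNP values of Nat10 d/d replicate 2 was not tested.

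**Figure D4:**
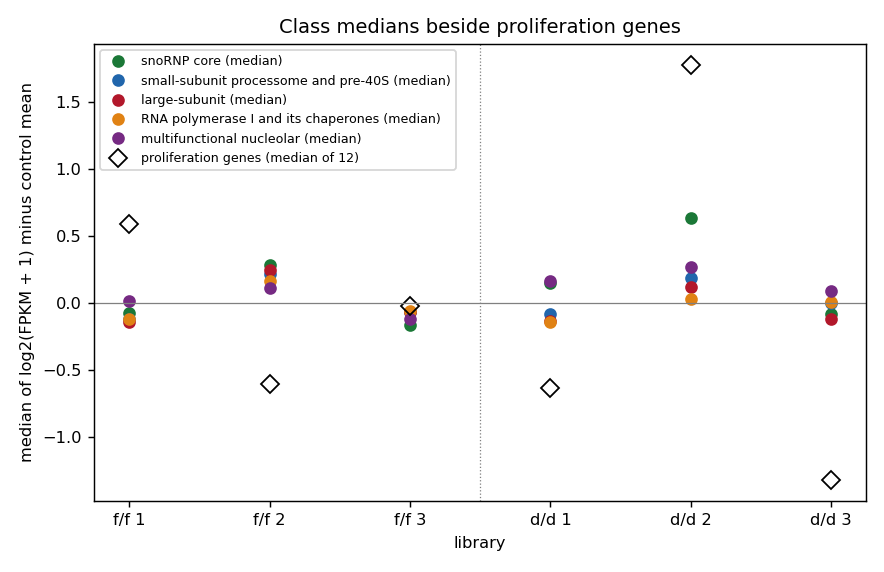
Median deviation from the control mean (y axis, log2(FPKM + 1)) of the 5 classes and of 12 proliferation genes (open diamonds) in each library (x axis). In control replicate 2 the class medians lie at 0.11 to 0.28 and the proliferation median at -0.60; in Nat10 d/d replicate 2 the proliferation median is 1.78.

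Genes of the Myc network were read beside the set, and none of the 8 passed the test. Myc was at 59.7, 54.9 and 48.8 FPKM in controls and at 44.3, 36.5 and 50.5 in Nat10 d/d, and it was lowest in Nat10 d/d replicate 2. The log2 change of Myc was -0.32 (SE 0.15; limma adjusted p 0.922), with overlapping groups, and -0.19 without Nat10 d/d replicate 2. Mycn was low, at 2.24, 2.37 and 1.73 FPKM in controls and 1.55, 2.83 and 3.04 in Nat10 d/d. Mxd1, Mxi1 and Mnt, which compete with Myc for its partner Max, were lowest in replicate 2 of both groups. Replicate 2 was the lowest control for 4259 of 12640 tested genes and the lowest Nat10 d/d library for 4907. Mnt differed little among controls, at 11.6, 11.1 and 11.8 FPKM, and was at 10.6, 8.20 and 13.1 in Nat10 d/d. Mxd4, of the same family, was lowest in replicate 2 among controls (87.8, 62.3 and 85.9 FPKM) but highest there in Nat10 d/d (48.2, 84.8 and 75.4). Mxi1 was at 46.6, 34.7 and 45.4 FPKM in controls and 45.7, 27.0 and 57.2 in Nat10 d/d, and Mxd1 at 8.21, 5.83 and 7.59 and at 9.06, 5.89 and 9.25. Their part in the values of the 42 genes was not tested.

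Spread within groups also set these genes beside the rest of the transcriptome. The median SD on the log2 scale was 0.22 among controls, against 0.12 for all tested genes, and 0.14 among Nat10 d/d libraries, against 0.21. The SD was larger among controls for 24 of 42 genes (57.1%), and for 26.1% of all tested genes. The median ratio of the SD in Nat10 d/d to that in controls was 0.81 for the set and 1.73 for all tested genes. The ratio for the set rests on control replicate 2: without it the ratio was 2.09 for the set and 2.22 for all tested genes. Without control replicate 1 or 3 it was 0.68 or 0.78 for the set and 1.96 or 2.17 for all tested genes. Without Nat10 d/d replicate 2 the ratios were 0.404 and 1.05. In these ratios the SD of the reduced group comes from 2 libraries, so they are not like those from 3 libraries a group. By class, the ratio was 0.508 for small-subunit genes, 0.66 for large-subunit genes, 0.998 for RNA polymerase I genes and 1.21 for the snoRNP core.

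**Figure D5:**
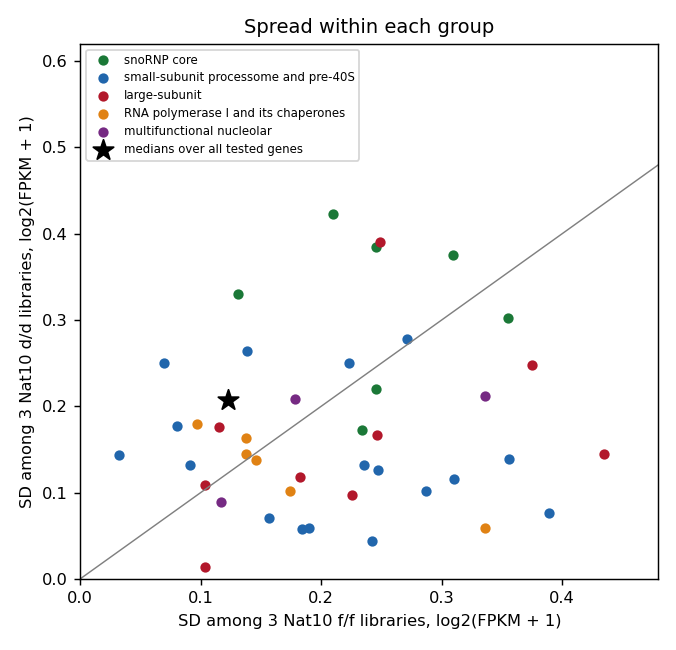
SD among the 3 Nat10 d/d libraries (y axis) against SD among the 3 Nat10 f/f libraries (x axis), both of log2(FPKM + 1), for the 42 genes by class. The line marks equal spread and the star the medians over all tested genes, 0.12 and 0.21; 24 of the 42 genes lie below the line.

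Promoters were searched for the E-box CACGTG, which reads the same on both strands and is bound by Myc with Max. RefSeq promoters (GRCm38.p6, 250 bases before to 50 after the start) were matched by symbol for 35 of the 42 genes. At least 1 E-box was found for 9 of these (25.7%), beside 8.09% of the 27025 genes in the table. The ETS core CGGAAG or its reverse complement was found for 19 of 35 (54.3%), beside 18.8% of all genes. No comparison of base composition was made, and a match is not evidence of binding. The E-boxes are shown in capitals with up to 12 flanking bases on each side, 5′ to 3′ on the strand of the gene.
Rrn3 (chr16:13780472-13780501, plus strand): gagcgccaaggtCACGTGcacacgcctcta
Rrn3 (chr16:13780639-13780668, plus strand): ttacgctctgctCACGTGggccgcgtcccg
Nop2 (chr6:125131811-125131840, plus strand): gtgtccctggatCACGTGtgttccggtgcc
Utp18 (chr11:93885769-93885798, minus strand): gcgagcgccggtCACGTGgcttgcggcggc
Pes1 (chr11:3963965-3963994, plus strand): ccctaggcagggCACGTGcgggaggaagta
Utp4 (chr8:106893643-106893672, plus strand): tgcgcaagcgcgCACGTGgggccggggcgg
Wdr43 (chr17:71616220-71616249, plus strand): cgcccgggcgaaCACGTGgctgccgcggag
Tsr1 (chr11:74898092-74898121, plus strand): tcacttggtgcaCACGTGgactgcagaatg
Ltv1 (chr10:13193092-13193121, minus strand): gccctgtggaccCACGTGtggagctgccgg
Utp20 (chr10:88826765-88826789, minus strand): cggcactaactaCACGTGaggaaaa

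These E-box genes came from 3 classes and run from Rrn3, which starts rRNA transcription, to Tsr1 and Ltv1 of the late small subunit. Their log2 changes ran in both directions, from -0.08 for Utp20 to 0.24 for Wdr43. None of the snoRNP core genes with a promoter entry, Gar1 included, held the sequence in this window.

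The other genes of the pathway gave the same count of calls. Of 107 further symbols, 103 gave a listed gene, 3 of them RNA polymerase I subunits listed under the older symbols Twistnb, Cd3eap and Znrd1. None of the 103 passed the threshold, 71 were higher (68.9%, beside 56.6% of all tested genes) and 32 lower, and the median log2 change was 0.08. Over the settings tried, 62 to 83 were higher, and the median ranged from 0.03 with quantile normalization to 0.12 without Nat10 f/f replicate 2. It was 0.04 with upper-quartile scaling and without Nat10 f/f replicate 3. Groups did not overlap for 12 of 103 (11.7%), beside 10.7% of all tested genes: 9 were higher (6.12% of all) and 3 lower (4.6% of all). Among controls, 77 of 103 were highest in replicate 2, though only 3 of the 10 further RNA polymerase I genes were. Within Nat10 d/d, 47 of 103 (45.6%) were highest in replicate 2, beside 40.1% of all tested genes and 73.8% of the 42.

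The 3 with the smallest p were Znhit3, Lyar and Sbds. Znhit3, a C/D snoRNP assembly factor, was at 11.9, 12.99 and 11.9 FPKM in controls and 13.6, 15.6 and 17.4 in Nat10 d/d, a log2 change of 0.31 (SE 0.12). Lyar, a nucleolar zinc-finger protein, was at 21.8, 26.2 and 21.4 in controls and 31.0, 34.4 and 25.3 in Nat10 d/d, a log2 change of 0.37 (SE 0.15). Sbds, which frees the large subunit of the factor Eif6, was at 36.5, 40.2 and 36.4 in controls and 50.5, 41.5 and 47.0 in Nat10 d/d, a log2 change of 0.29 (SE 0.11). The groups overlapped for Lyar only, and each of the 3 had a limma adjusted p of 0.922.

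The genes outside the set whose pattern was most like the mean of the 42 were found by Pearson correlation over the 6 libraries. They were Tars (0.997), Rrp8 (0.994), Iars (0.988), Syncrip (0.986) and Emc8 (0.985). Tars, which encodes a threonyl-tRNA synthetase, was at 25.5, 35.3 and 26.4 FPKM in controls and at 28.7, 35.5 and 27.3 in Nat10 d/d. These values are a description, as the genes were picked for their correlation out of all tested genes.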

How the data were processed

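Per the labels' protocols, TRIzol was used for RNA and the TruSeq RNA kit for libraries. HISAT2 2.2.1, Cufflinks 2.2.1 and build mm10 are named in the submitters' processing notes. The deposited values were taken as FPKM, from Cufflinks and the non-whole values; the file headers do not name a unit. Annotation, strandedness and scaling between libraries are not given in the sources used here. Exons of 16 of the 42 genes, Nop56, Wdr43, Gnl3, Noc2l and Bop1 among them, overlap a gene on the opposite strand, and without strand such reads cannot be told apart.

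Values were analysed as log2(FPKM + 1), which understates changes of low genes. Genes at 1 FPKM or more in at least 3 libraries (12640) entered a fit by group in limma 3.58.1 (R 4.3.3) with a mean-variance trend. Tests are two-sided, Benjamini-Hochberg adjusted over all tested genes, with a threshold of 0.05. In 10 simulations of this comparison with 12640 genes, 85.8% of genes changed by 1.5 log2 units were called and 4.78% of calls were false. Python 3.11.15 and matplotlib 3.10.9 were used for counts and plots. Coordinates are from GENCODE M21 (GRCm38, the same assembly as mm10).

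Alternatives were another pseudocount, filters, scalings, no trend, array quality weights, a replicate block and leaving out libraries. The members, lists and tests were chosen with earlier results of these data known. The genes named by rule were, in each class, those without overlap, with the smallest p, the highest mean or the largest range in Nat10 d/d; of the other pathway genes, the 3 with the smallest p. Library values of further members are printed as description; those members were chosen after their values were seen. Depth per library was compared from values resting on few fragments, and no 2 libraries were identical.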

Additional observations from a re-analysis of the deposited data

How the results depend on the processing

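None of the 42 genes was called in any of the 17 fits (the reported one and 16 others). Class medians did move: over the fits they ranged from 0.06 to 0.42 for the snoRNP core, -0.04 to 0.12 for small-subunit, -0.11 to 0.05 for large-subunit and -0.12 to 0.01 for RNA polymerase I genes, and 0.11 to 0.23 for the other 3. DESeq2 and edgeR were not run, since both need counts. Over all genes, limma called 0, and 630 had an unadjusted p under 0.05; array quality weights called 316, leaving out 1 library gave 0 to 12 (12 without Nat10 d/d replicate 2), and leaving out Nat10 f/f replicate 2 and Nat10 d/d replicate 2 together, chosen after seeing the data, gave 8. With array quality weights 1 further pathway gene was called, Sbds (log2 change 0.40; adjusted p 0.0486, range over settings 0.0486 to 1), and Nat10 passed (log2 change -1.09; adjusted p 0.0386, range 0.0386 to 1); the cause was not tested. Fbl turned to -0.018 with these weights. When libraries were left out, the log2 change crossed 0 for 5 of the 12 genes of the set named by rule, and for others such as Nop10, Dkc1 and Ddx21: it ranged from -0.076 to 0.293 for Fbl (lowest without Nat10 d/d replicate 2), from -0.013 (without Nat10 f/f replicate 1) to 0.199 for Nob1, from -0.208 to 0.050 for Utp6, from -0.148 to 0.025 for Noc2l and from -0.127 to 0.035 for Ubtf. The highest value came without Nat10 f/f replicate 2 for Noc2l and without Nat10 d/d replicate 1 for Utp6 and Ubtf, which also turned without Nat10 f/f replicate 2 (0.010 and 0.034). The ratio of spread in the set ranged from 0.404 to 2.09. The replicate number as a block called 0 genes, with 4 of the 42, and 726 of all 12640 genes, at an unadjusted limma p under 0.05. Same-numbered libraries correlated at -0.34, -0.03 and 0.10 in their deviations. The highest values were 0.27, for control replicate 3 with Nat10 d/d replicate 1 and control replicate 1 with Nat10 d/d replicate 2. Deviations centred within groups of 3 offset one another, so these correlations cannot settle whether a number marks a shared batch. The labels do not say that it does, so the numbers are not treated as pairs. Because absolute depth is unknown, no counting intervals are given.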
